A study of Mus musculus with 12 samples.

Results

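The genes of DNA replication and S phase described here are 42 mouse genes, taken from a fixed list of symbols of the replication machinery and of nucleotide synthesis. All 42 were found among the 53715 genes of the count table, and all 42 passed the filter of more than 10 counts in any library. The data are RNA sequencing of liver parenchymal cells at 3 stages, with 4 biological replicates per group and 12 libraries in all, and the comparisons ask how in vitro differentiated cells stand between fetal progenitors and adult hepatocytes. All animals were C57BL/6JOlaHsd mice without a transgene named by the labels. Hepatoblasts, the fetal progenitors of hepatocytes and bile duct cells, came from livers at stage E14.5, were enriched on magnetic columns by their surface protein Dlk1 and were lysed without culture. Each isolation described in the methods pooled livers of many embryos, so that a library does not stand for 1 embryo. Diff. hepatocytes were such Dlk1+ cells grown for 4 days, by the design text, on fibronectin in a differentiation medium with serum, insulin-transferrin-selenium supplement, dexamethasone and Matrigel. Mature hepatocytes were isolated by collagenase perfusion from the livers of adult male mice aged 8 to 12 weeks and were lysed without culture. Hepatoblasts and Diff. hepatocytes share the stage of origin and differ in culture and the time spent in it. Hepatoblasts and mature hepatocytes differ in age and in the way of isolation. Diff. and mature hepatocytes differ in age, isolation and culture together. The embryos were of unstated sex, so sex may also differ from the adult males. Factors that differ together in a comparison cannot be told apart.

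Replication starts when the origin recognition complex (ORC), Cdc6 and Cdt1 load a ring of the Mcm2, Mcm3, Mcm4, Mcm5, Mcm6 and Mcm7 proteins on DNA, which is called licensing. Kinases then turn the ring into an active helicase together with Cdc45 and the GINS complex, after which polymerases, a sliding clamp and its loader copy both strands while ribonucleotide reductase and thymidylate enzymes supply the nucleotides. Most of these genes are targets of E2F transcription factors and are transcribed around the entry into S phase, so cells that leave the cycle lose their messages. Fetal liver grows by division of its cells, whereas adult hepatocytes are largely quiescent unless tissue is lost.

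The total of gene counts ranged from 19581551 to 25216977 over the libraries. Levels are given as CPM, the counts scaled to a common total, computed on library sizes scaled by TMM factors of 0.677 to 1.44, and library values are given below in the order of replicates 1 to 4. Dlk1 read 2459.8, 3528, 3901 and 4196 CPM in the hepatoblasts, 95.8, 93.4, 99 and 88.2 in the Diff. hepatocytes and 3.63, 3.53, 6.42 and 3.16 in the mature hepatocytes. Alb, which encodes albumin, was at 27748 CPM or more in every library. Hepatoblasts replicate 1 stood apart from the other hepatoblast libraries. The 12 erythroid markers summed to 3204 CPM in it and to 649, 528 and 390 CPM in replicates 2, 3 and 4, and the 10 macrophage markers to 271 CPM against 69.6, 83.3 and 80.2 CPM. It also held the highest hepatoblast value in 37 of the 42 replication genes, compared with 33.3% of all tested genes, with a median log2 excess of 0.57 over the mean of the other hepatoblast libraries. Among the Diff. hepatocytes, replicate 1 was highest in 34 of the 42 genes, compared with 31.9% of all tested genes. Its 12 mitotic markers summed to 156 CPM against 67.5 to 73.6 CPM in replicates 2, 3 and 4, its 10 macrophage markers to 166 CPM against 23.3 to 72.1 CPM, and Krt7, a bile duct keratin, read 90.1, 20.6, 32.4 and 24.5 CPM in the Diff. hepatocytes. The part of these other cells in the replication genes was not tested, and in bulk RNA fewer cells of a type and less RNA per cell cannot be told apart.

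The replication genes were lower in Diff. hepatocytes and in mature hepatocytes than in hepatoblasts. Their median log2 fold change was -2.84 in Diff. hepatocytes against hepatoblasts and -3.14 in mature hepatocytes against hepatoblasts, where the medians over all 17779 tested genes were -0.01 and -0.15. A call required an adjusted p (Benjamini-Hochberg) under 0.01 in edgeR's quasi-likelihood test together with an absolute log2 fold change over 1. In Diff. hepatocytes 40 of the 42 genes were called lower and 0 were called higher, against a background of 14.0% of all tested genes called lower. All 42 had their 4 Diff. hepatocyte libraries below their 4 hepatoblast libraries, where 28.8% of all tested genes did. In mature hepatocytes 38 were called lower, against a background of 24.7%, and Mcm10 alone was called higher, against a background of 20.1%. The libraries of mature hepatocytes and hepatoblasts did not overlap in 40 genes that were lower (background 35.9%) and in Mcm10, which was higher (background 30.1%). Both comparisons use the same hepatoblast libraries, so their counts are not independent of each other. Without hepatoblasts replicate 1 the counts were again 40 lower in Diff. hepatocytes and 38 lower with 1 higher in mature hepatocytes, with medians of -2.64 and -2.99.

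**Figure D1:**
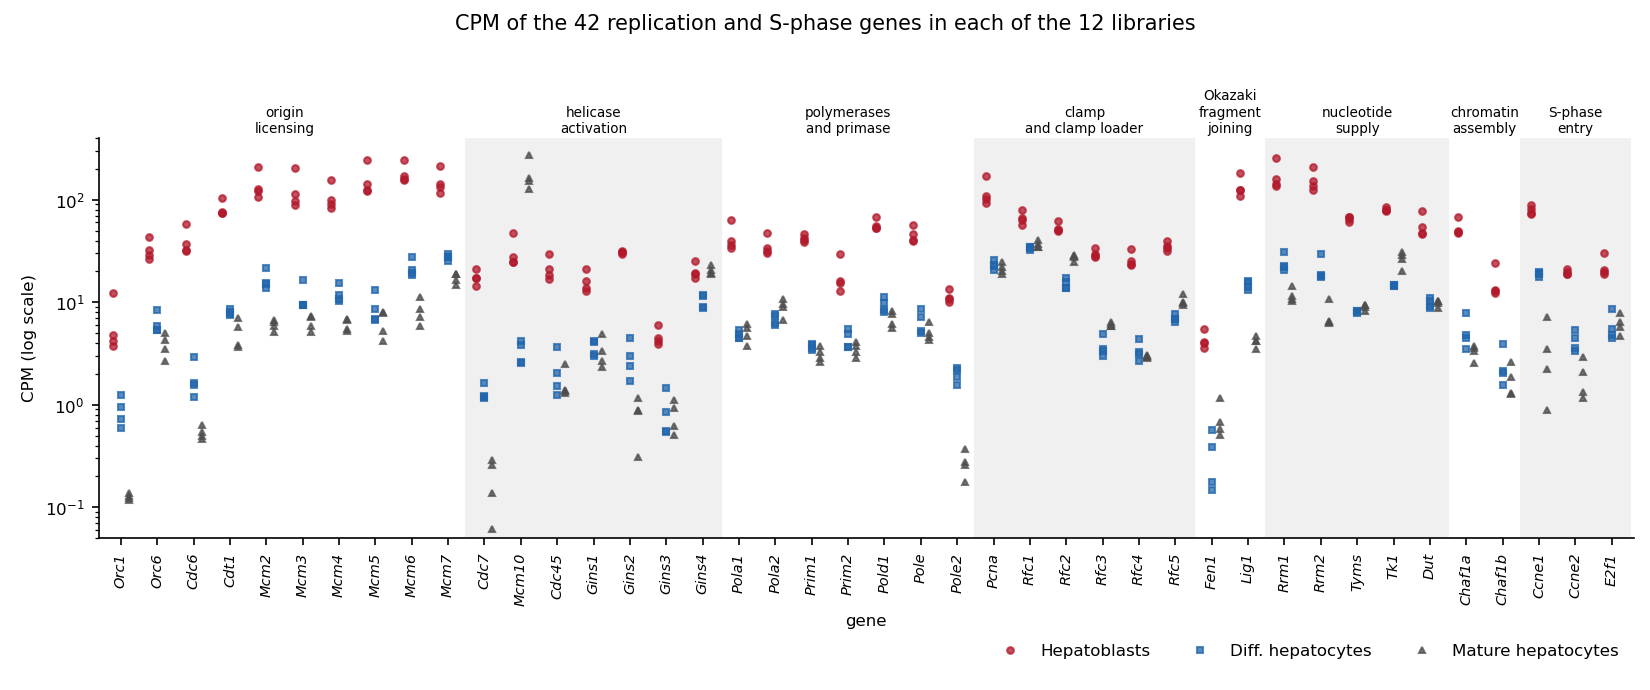
CPM on a log scale of each of the 42 genes, 1 point per library, with the genes in the order of their roles and hepatoblasts as circles, Diff. hepatocytes as squares and mature hepatocytes as triangles. The 4 hepatoblast points lie above all other points in 40 of the 42 genes, with Mcm10 far higher in mature hepatocytes and the Gins4 points of hepatoblasts and mature hepatocytes overlapping.

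All 10 origin licensing genes fell in both comparisons. Their log2 fold changes ran from -4.44 to -2.38 in Diff. hepatocytes and from -6.19 to -3.07 in mature hepatocytes. Mcm6, the licensing gene with the highest mean CPM in hepatoblasts, read 243, 169, 159.5 and 156 CPM in the hepatoblasts, 27.9, 18.6, 20.5 and 19.3 in the Diff. hepatocytes and 7.26, 11.2, 8.69 and 5.83 in the mature hepatocytes. The 4 hepatoblast values of Mcm6 lay above all others, and it fell by 3.08 on the log2 scale in Diff. hepatocytes (SE 0.21, adjusted p = 5.08e-08 in edgeR's quasi-likelihood test) and fell by 4.46 in mature hepatocytes (SE 0.23). Cdc6, the ATPase that helps to place the ring on origins, showed the largest change of all 42 genes in culture. It read 57.8, 37.1, 32.4 and 31.4 CPM in the hepatoblasts, 2.89, 1.2, 1.55 and 1.63 in the Diff. hepatocytes and 0.548, 0.641, 0.467 and 0.496 in the mature hepatocytes. Diff. hepatocytes kept 4.59% of the mean hepatoblast level of Cdc6 and mature hepatocytes 1.36%, a fall by 4.44 (SE 0.27, adjusted p = 2.09e-08) and by 6.19 (SE 0.32) on the log2 scale in edgeR's quasi-likelihood test. Cdt1, its partner in loading, read 105, 75.5, 74.4 and 74.1 CPM in the hepatoblasts, 7.99, 8.52, 7.55 and 7.69 in the Diff. hepatocytes and 3.70, 7.06, 3.85 and 5.71 in the mature hepatocytes. The 3 groups were ordered from hepatoblasts through Diff. to mature hepatocytes without overlap in Cdt1.

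The ORC itself split by subunit. Orc1, its largest subunit and an ATPase, read 12.3, 4.21, 4.79 and 3.78 CPM in the hepatoblasts, 0.951, 0.731, 1.24 and 0.591 in the Diff. hepatocytes and 0.137, 0.128, 0.117 and 0.124 in the mature hepatocytes. In mature hepatocytes each library held 2 counts of Orc1, and over the 4 libraries of each group its level was 49.6 times higher in hepatoblasts (95% exact interval 25.1 to 115, counting error only). Orc6, which takes part in loading the ring, had the smallest licensing change in culture, at -2.38 ± 0.21 (SE), and read 43.1, 32.1, 28.8 and 26.4 CPM in the hepatoblasts, 8.43, 5.81, 5.37 and 5.32 in the Diff. hepatocytes and 2.67, 4.30, 3.5 and 4.96 in the mature hepatocytes. The other 4 subunits were outside the list of 42. With TMM factors Orc2 alone of these was called lower, at -1.43 ± 0.34 (SE) in Diff. hepatocytes and -1.68 ± 0.35 (SE) in mature hepatocytes, and hepatoblasts replicate 1 read 42.3 CPM of it against 18.2, 12.9 and 11.3 CPM in the other hepatoblast libraries. Orc3 and Orc5 were lower without reaching the threshold of fold change, and Orc4 read 15.4, 17.9, 14.53 and 17.1 CPM in the hepatoblasts, 15.3, 15.1, 13.3 and 15.8 in the Diff. hepatocytes and 13.2, 14.9, 15.2 and 13.2 in the mature hepatocytes. The Orc4 libraries of all 3 groups overlapped, with -0.20 ± 0.10 (SE) in mature hepatocytes against hepatoblasts (edgeR adjusted p = 0.0959). With library totals in place of TMM, Orc3, Orc4 and Orc5 were called lower in mature hepatocytes as well, at -1.37, -1.05 and -1.75, and Orc5 in Diff. hepatocytes, at -1.26.

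The remaining subunits of the MCM ring moved with Mcm6. Mcm2 read 207, 128, 121 and 107 CPM in the hepatoblasts, 21.7, 13.9, 15.0 and 15.4 in the Diff. hepatocytes and 5.14, 6.35, 6.71 and 5.83 in the mature hepatocytes. Mcm3 read 203, 113, 97.2 and 89.0 CPM in the hepatoblasts, 16.3, 9.38, 9.41 and 9.31 in the Diff. hepatocytes and 5.82, 7.25, 7.35 and 5.15 in the mature hepatocytes. Mcm4 read 155, 100.4, 91.1 and 83.8 CPM in the hepatoblasts, 15.3, 10.2, 11.8 and 10.7 in the Diff. hepatocytes and 5.21, 6.67, 6.82 and 5.46 in the mature hepatocytes. In each of them the hepatoblast values were the highest and the Diff. hepatocyte values all exceeded the mature ones. Mcm5, with the largest fall of the ring in culture at -4.17 ± 0.30 (SE), read 245, 142, 125 and 123 CPM in the hepatoblasts, 13.0, 6.93, 8.57 and 6.70 in the Diff. hepatocytes and 7.81, 7.95, 5.25 and 4.16 in the mature hepatocytes. Its Diff. and mature hepatocyte libraries overlapped. Mcm7, with the smallest fall of the ring, read 212, 142, 134 and 116 CPM in the hepatoblasts, 29.6, 27.5, 25.2 and 27.4 in the Diff. hepatocytes and 18.9, 14.8, 18.7 and 16.5 in the mature hepatocytes. Of the exon bases of Mcm7, 7.25% lie opposite to Ap4m1, and 13.2% of its sequences of 75 bases occur in transcripts of other genes.

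The genes of helicase activation held Mcm10 and Gins4, which departed most from the common direction. Cdc7, the kinase that phosphorylates the loaded ring, read 21.3, 17.4, 14.3 and 17.1 CPM in the hepatoblasts, 1.64, 1.2, 1.15 and 1.23 in the Diff. hepatocytes and 0.137, 0.257, 0.292 and 0.0621 in the mature hepatocytes. It was nearly undetected in mature hepatocytes, with 1 to 5 counts per library, and its changes of -3.74 ± 0.22 (SE) and -6.50 ± 0.29 (SE) were the largest of this role. Cdc45, part of the active helicase, read 29.5, 21.2, 18.6 and 16.9 CPM in the hepatoblasts, 3.63, 2.06, 1.24 and 1.53 in the Diff. hepatocytes and 1.37, 2.5, 1.40 and 1.30 in the mature hepatocytes, with -3.34 ± 0.32 (SE) in Diff. hepatocytes. Of the GINS subunits, Gins1 read 21.2, 16.2, 13.8 and 12.8 CPM in the hepatoblasts, 4.23, 3.01, 4.13 and 3.10 in the Diff. hepatocytes and 2.33, 4.87, 3.32 and 2.67 in the mature hepatocytes. Gins2 read 29.6, 31.1, 31.1 and 31.9 CPM in the hepatoblasts, 4.49, 1.72, 3.02 and 2.41 in the Diff. hepatocytes and 1.16, 0.898, 0.875 and 0.310 in the mature hepatocytes. Gins3 read 5.96, 4.24, 4.53 and 3.94 CPM in the hepatoblasts, 1.47, 0.559, 0.843 and 0.542 in the Diff. hepatocytes and 0.617, 0.513, 1.11 and 0.931 in the mature hepatocytes. All 3 were called lower against hepatoblasts in both comparisons, with Gins2 falling furthest, by 3.4 in Diff. hepatocytes and by 5.25 in mature hepatocytes on the log2 scale. Of the exon bases of Gins2, 67.3% lie opposite to exons of Gse1, and reads of such overlapping genes cannot be told apart here, since the methods call the library preparation strand-specific but the strand setting of the counting is not given in the sources used here.

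Gins4, which completes the complex, did not follow its partners. It read 25.5, 19, 19.2 and 17.3 CPM in the hepatoblasts, 11.8, 8.95, 11.5 and 8.82 in the Diff. hepatocytes and 18.8, 20.8, 19.4 and 23 in the mature hepatocytes. Mature hepatocytes and hepatoblasts overlapped, with a log2 fold change of 0.02 ± 0.14 (SE) (edgeR adjusted p = 0.916), whereas all 4 Diff. hepatocyte libraries lay below both. Gins4 was at -0.98 ± 0.14 (SE) in Diff. hepatocytes against hepatoblasts (edgeR adjusted p = 5.34e-05) and at -1.0 ± 0.14 (SE) against mature hepatocytes, in both cases just inside the fold change threshold of 1, and it was called lower against hepatoblasts without hepatoblasts replicate 2, 3 or 4 or Diff. hepatocytes replicate 1 or 3 (-1.06 to -1.01), without the count filter (-1.01) and with library totals (-1.32). The ratio of Gins2 to Gins4 CPM was 1.16 to 1.85 in hepatoblasts, 0.192 to 0.382 in Diff. hepatocytes and 0.0135 to 0.0620 in mature hepatocytes.

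Mcm10, which helps to start the helicase and holds polymerase alpha at the fork, ran opposite to the other genes in the adult. It read 47.2, 27.9, 24.6 and 24.7 CPM in the hepatoblasts, 4.23, 2.58, 2.62 and 3.84 in the Diff. hepatocytes and 127, 273, 161 and 154 in the mature hepatocytes. Every mature hepatocyte library exceeded every hepatoblast library, with a log2 fold change of 2.53 ± 0.27 (SE) (edgeR adjusted p = 1.76e-06), while every Diff. hepatocyte library lay below, with -3.23 ± 0.30 (SE) (edgeR adjusted p = 9.90e-07). With library totals in place of TMM the rise in mature hepatocytes was 1.67. The ratio of Mcm10 to Mcm2 CPM stayed between 0.174 and 0.250 in the 8 fetal and cultured libraries and was 24.1 to 43.1 in mature hepatocytes. No exon of another gene overlaps Mcm10 in the annotation. Among the protein-coding genes of the count table, the nearest on either side is Ucma, on the opposite strand at a gap of 3966 bases. Ucma had mean levels of 0.0322, 0 and 0.0924 CPM in hepatoblasts, Diff. and mature hepatocytes. Optn (chr2:5020642-5064051, GRCm38), on the same strand and separated from Mcm10 by a gap of 7851 bases, had 16.0, 46.0 and 142 CPM. Farther off and on the opposite strand, Phyh had 147, 327 and 2158 CPM at a gap of 50984 bases, and Ccdc3 had 3.06, 1.55 and 0.0642 CPM at a gap of 124985 bases. Counts per gene do not separate the transcripts of Mcm10, and its reads were not analysed by exon here.

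The promoters of these genes carry more of the letters of E2F sites than promoters at large, and those of Mcm5, Mcm6, Cdc6 and Mcm10 are shown because Mcm5 and Cdc6 fell furthest in culture, Mcm6 held the most matches and Mcm10 is the exception in the adult. Windows from 250 bases before to 50 bases after the start were taken from RefSeq on GRCm38.p6 and found for 34 of the 42 genes, 39 windows in all. The words searched were TTCCCGC, its variant TTGGCGC, then also TTCGCGC, and lastly TTGCCGC, on both strands, and matches may overlap each other. They occurred in 25 of 39 windows (64.1%), compared with 9.57% of all 32851 windows, and in 22 of the 34 genes, compared with 17.9% of the 12183 tested genes with a window. The CHR word TTTGAA or its variant TTCGAA occurred in 20.5% of the windows and 19.2% of all windows, and CCAAT in 48.7% and 37.4%. Each sequence below gives the 200 bases before the RefSeq start, 5′ to 3′ on the strand of the gene, with E2F words in capitals. They lie at chr8:75109309-75109508 (plus strand) for Mcm5, chr1:128359706-128359905 (minus strand) for Mcm6, chr11:98907951-98908150 (plus strand) for Cdc6 and chr2:5012792-5012991 (minus strand) for Mcm10.
Mcm5: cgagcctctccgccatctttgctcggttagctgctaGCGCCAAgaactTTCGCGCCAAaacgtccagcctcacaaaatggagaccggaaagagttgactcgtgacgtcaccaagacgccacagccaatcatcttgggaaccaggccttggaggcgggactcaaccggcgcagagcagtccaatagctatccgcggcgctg
Mcm6: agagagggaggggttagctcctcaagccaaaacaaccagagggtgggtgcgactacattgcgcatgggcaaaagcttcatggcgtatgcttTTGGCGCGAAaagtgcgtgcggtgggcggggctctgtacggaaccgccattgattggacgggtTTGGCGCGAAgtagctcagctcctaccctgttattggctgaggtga
Cdc6: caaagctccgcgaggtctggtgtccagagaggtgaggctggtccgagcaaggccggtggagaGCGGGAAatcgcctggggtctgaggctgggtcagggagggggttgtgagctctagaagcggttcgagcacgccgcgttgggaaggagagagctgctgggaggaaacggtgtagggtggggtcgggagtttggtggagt
Mcm10: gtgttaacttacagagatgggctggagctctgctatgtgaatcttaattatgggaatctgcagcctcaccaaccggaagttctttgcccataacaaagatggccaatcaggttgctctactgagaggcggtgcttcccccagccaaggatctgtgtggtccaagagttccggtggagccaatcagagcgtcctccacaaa
Mcm5 holds 3 matches and Cdc6 1, all in the printed stretch. The counted gene of Cdc6 starts at chr11:98907801 in the annotation, before its window and printed stretch. The bases before that annotated start of Cdc6 were not searched. Mcm6 holds 5 matches in its window, 4 of them printed and 1 after the start, and Mcm10 holds 0. The window of Mcm2, which was called lower in both comparisons, holds 0 as well. Among the members, the 22 genes with such letters had a median log2 fold change of -3.04 in Diff. hepatocytes and -3.94 in mature hepatocytes, and the 12 genes without them -2.43 and -2.5. In Diff. hepatocytes 21 of the 22 with the letters and 12 of the 12 without were called lower. In mature hepatocytes 21 and 11 were. Rfc1, which was not called, has 2 overlapping matches at bases 28 and 31 after its start. Over all tested genes with a window, 18.0% of those with the letters and 13.9% of those without were called lower in Diff. hepatocytes. The same shares in mature hepatocytes were 29.38% and 24.03%. A match is a description of letters and not a measured site.

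All 7 genes of the polymerases and primase fell in both comparisons, by 3.52 to 2.05 on the log2 scale in Diff. hepatocytes and by 5.37 to 1.99 in mature hepatocytes. Pold1, the catalytic subunit of polymerase delta and the highest of this role in CPM in hepatoblasts and Diff. hepatocytes, read 67.6, 55.0, 52.5 and 52.6 CPM in the hepatoblasts, 11.3, 8.39, 7.99 and 9.90 in the Diff. hepatocytes and 7.61, 6.09, 8.28 and 5.65 in the mature hepatocytes. Prim1, the catalytic subunit of primase, had the largest change in culture, at -3.52 ± 0.12 (SE) (edgeR adjusted p = 1.42e-10), and read 46.7, 42.8, 40.6 and 38.9 CPM in the hepatoblasts, 3.8, 3.57, 3.42 and 3.94 in the Diff. hepatocytes and 3.29, 3.72, 2.86 and 2.61 in the mature hepatocytes. Prim2, its regulatory partner, had the smallest, at -2.05 ± 0.25 (SE), and read 29.4, 16.3, 15.3 and 13.0 CPM in the hepatoblasts, 5.49, 4.90, 3.68 and 3.70 in the Diff. hepatocytes and 3.77, 3.27, 4.08 and 2.85 in the mature hepatocytes. In all 3 genes the Diff. and mature hepatocyte libraries overlapped. Pola1, the catalytic subunit of polymerase alpha, read 62.7, 39.6, 36.1 and 34.1 CPM in the hepatoblasts, 5.40, 4.52, 4.53 and 4.88 in the Diff. hepatocytes and 5.55, 3.78, 4.67 and 6.14 in the mature hepatocytes. Pola2, its accessory subunit, read 47.5, 34, 30.4 and 31.6 CPM in the hepatoblasts, 7.65, 7.27, 6.04 and 6.31 in the Diff. hepatocytes and 6.72, 8.91, 10.7 and 9.62 in the mature hepatocytes. The Diff. and mature hepatocyte libraries overlapped in both. Pole, the catalytic subunit of polymerase epsilon, read 56.3, 46.1, 40.6 and 39.6 CPM in the hepatoblasts, 8.51, 5.29, 7.19 and 4.98 in the Diff. hepatocytes and 4.25, 6.35, 4.61 and 4.96 in the mature hepatocytes. Pole2, an accessory subunit of polymerase epsilon, read 13.3, 11.1, 10.7 and 10.1 CPM in the hepatoblasts, 2.16, 1.85, 1.55 and 2.27 in the Diff. hepatocytes and 0.274, 0.257, 0.175 and 0.372 in the mature hepatocytes. Pole2 went on to fall in the mature cells, where 3 to 6 counts per library were left, while Pole did not differ past the threshold between Diff. and mature hepatocytes.

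The sliding clamp fell and its loader fell unevenly. Pcna, which encodes the clamp, read 171, 109, 102 and 93.5 CPM in the hepatoblasts, 25.8, 20.4, 22.4 and 23 in the Diff. hepatocytes and 18.9, 22, 20.4 and 24.7 in the mature hepatocytes. Its Diff. and mature hepatocyte libraries overlapped at 19.2% and 18.0% of the hepatoblast mean, with -2.38 ± 0.17 (SE) and -2.47 ± 0.18 (SE) against hepatoblasts. Of the loader, Rfc3 fell most in culture, at -3.0 ± 0.15 (SE), and read 28.0, 33.8, 27.6 and 29.3 CPM in the hepatoblasts, 4.93, 3.01, 3.37 and 3.5 in the Diff. hepatocytes and 5.89, 6.35, 5.89 and 6.21 in the mature hepatocytes. Rfc4 read 33.4, 25.4, 23.8 and 23.3 CPM in the hepatoblasts, 4.36, 3.14, 3.29 and 2.66 in the Diff. hepatocytes and 3.02, 2.95, 3.09 and 2.85 in the mature hepatocytes. Rfc5 read 39.8, 35.7, 31.7 and 33.9 CPM in the hepatoblasts, 7.69, 6.93, 6.84 and 6.45 in the Diff. hepatocytes and 10.1, 12.0, 9.45 and 9.87 in the mature hepatocytes. These 3 small subunits were called lower in both comparisons. Rfc2, another small subunit, read 62.5, 51.9, 50.5 and 49.9 CPM in the hepatoblasts, 17.1, 13.6, 15.8 and 13.9 in the Diff. hepatocytes and 27.4, 28.9, 24.7 and 28.0 in the mature hepatocytes. It was called lower in Diff. hepatocytes at -1.83 ± 0.10 (SE), and in mature hepatocytes, where it kept 50.8% of the hepatoblast mean, its change of -0.98 ± 0.10 (SE) missed the fold change threshold (edgeR adjusted p = 1.24e-06). It passed without hepatoblasts replicate 2, 3 or 4 or mature hepatocytes replicate 2 or 4, at -1.02 to -1.00268. Rfc1, the large subunit, read 79.1, 66.5, 63.4 and 56.6 CPM in the hepatoblasts, 34.2, 32.5, 33.6 and 34.3 in the Diff. hepatocytes and 34.3, 40.1, 34.9 and 37.2 in the mature hepatocytes. The Rfc1 libraries of both hepatocyte groups lay below all hepatoblast libraries, but its changes of -0.98 ± 0.10 (SE) (edgeR adjusted p = 1.82e-06) and -0.86 ± 0.10 (SE) (edgeR adjusted p = 3.26e-06) stayed inside the fold change threshold, the first passing it without hepatoblasts replicate 3 (-1.01) or 4 (-1.06) or without the count filter (-1.01). With library totals Rfc1 was called lower in both comparisons, at -1.32 and -1.72, and Rfc2 in mature hepatocytes at -1.84. Of the exon bases of Rfc2, 15.1% lie opposite to Lat2.

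The enzymes that join Okazaki fragments were both called lower. Lig1, the ligase, read 181, 124, 125 and 109.8 CPM in the hepatoblasts, 16.2, 15.7, 14.1 and 13.1 in the Diff. hepatocytes and 3.49, 4.23, 4.72 and 4.22 in the mature hepatocytes. It fell by 3.19 in Diff. hepatocytes (SE 0.15) and by 5.01 in mature hepatocytes (SE 0.17, edgeR adjusted p = 3.57e-11), with no overlap between any of the 3 groups. Fen1, the flap nuclease, read 5.48, 3.97, 4.14 and 3.58 CPM in the hepatoblasts, 0.562, 0.387, 0.178 and 0.148 in the Diff. hepatocytes and 1.16, 0.513, 0.583 and 0.683 in the mature hepatocytes. Its fitted change was -3.71 ± 0.37 (SE) in Diff. hepatocytes, where 3 to 13 counts per library remained. Of the exon bases of Fen1, 78.8% lie opposite to the antisense gene Gm10143 and 73.7% of its sequences of 75 bases occur in other transcripts, so its level is uncertain.

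Nucleotide supply fell in all 5 genes. Rrm1, the large subunit of ribonucleotide reductase, read 257, 158, 144 and 135 CPM in the hepatoblasts, 30.6, 22.2, 22.6 and 20.7 in the Diff. hepatocytes and 10.8, 14.49, 11.6 and 10.3 in the mature hepatocytes. Rrm2, the subunit of this enzyme that is made in S phase, read 209, 153, 136 and 126 CPM in the hepatoblasts, 29.6, 18.4, 18.1 and 17.6 in the Diff. hepatocytes and 6.24, 10.8, 6.59 and 6.45 in the mature hepatocytes. Both fell alike in culture, at -2.85 ± 0.21 (SE) and -2.90 ± 0.23 (SE). Tyms, thymidylate synthase, read 67.2, 68.2, 64.6 and 60.7 CPM in the hepatoblasts, 8.25, 7.79, 8.08 and 8.13 in the Diff. hepatocytes and 8.91, 9.49, 9.39 and 8.25 in the mature hepatocytes. It had the largest change of this role in culture and the smallest standard error, at -3.01 ± 0.08 (SE) (edgeR adjusted p = 2.53e-11). Tk1, the cytosolic thymidine kinase of dividing cells, had the smallest, at -2.47 ± 0.11 (SE), and read 85.2, 78.4, 80.3 and 79.3 CPM in the hepatoblasts, 14.3, 14.8, 14.6 and 14.54 in the Diff. hepatocytes and 20.1, 28.7, 26.1 and 30.8 in the mature hepatocytes. Mature hepatocytes exceeded Diff. hepatocytes in every library for Tk1. Dut, which removes dUTP, read 78.4, 53.9, 47.6 and 46.3 CPM in the hepatoblasts, 10.3, 9.16, 11.1 and 8.82 in the Diff. hepatocytes and 10.3, 9.94, 8.87 and 10.3 in the mature hepatocytes. Its Diff. and mature libraries overlapped around 17.4% of the hepatoblast mean.

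Chromatin assembly and S-phase entry followed. Chaf1a, the large subunit of the chromatin assembly factor CAF-1, read 67.9, 47.9, 49.5 and 48.1 CPM in the hepatoblasts, 7.91, 3.48, 4.79 and 4.43 in the Diff. hepatocytes and 3.36, 3.72, 3.62 and 2.54 in the mature hepatocytes, and 52.5% of its exon bases lie opposite to Ubxn6. Chaf1b, the second named subunit, read 24, 13.3, 12.9 and 12.2 CPM in the hepatoblasts, 3.89, 1.55, 2.13 and 2.02 in the Diff. hepatocytes and 1.30, 2.63, 1.28 and 1.86 in the mature hepatocytes. They changed by -3.37 ± 0.23 (SE) and -2.70 ± 0.32 (SE) in culture. Ccne1, a cyclin that drives Cdk2 at the entry into S phase, read 74.7, 89.4, 81.5 and 72.2 CPM in the hepatoblasts, 19.2, 17.8, 19.8 and 18.8 in the Diff. hepatocytes and 0.891, 7.18, 2.22 and 3.54 in the mature hepatocytes. Ccne2, its paralog, read 19.6, 21.2, 18.7 and 19 CPM in the hepatoblasts, 5.40, 3.31, 4.48 and 3.6 in the Diff. hepatocytes and 1.16, 2.95, 1.34 and 2.11 in the mature hepatocytes. Ccne2 had the largest change of the 3 entry genes in culture, at -2.22 ± 0.23 (SE), and Ccne1 spread widely in mature hepatocytes, from 0.891 CPM in replicate 1 to 7.18 CPM in replicate 2. E2f1, an activating E2F factor, read 30.5, 19, 19.6 and 20.5 CPM in the hepatoblasts, 8.51, 4.47, 4.75 and 5.47 in the Diff. hepatocytes and 5.76, 6.35, 4.67 and 7.88 in the mature hepatocytes. Its changes of -1.95 ± 0.23 (SE) and -1.86 ± 0.23 (SE) were the smallest of the entry genes.

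**Figure D2:**
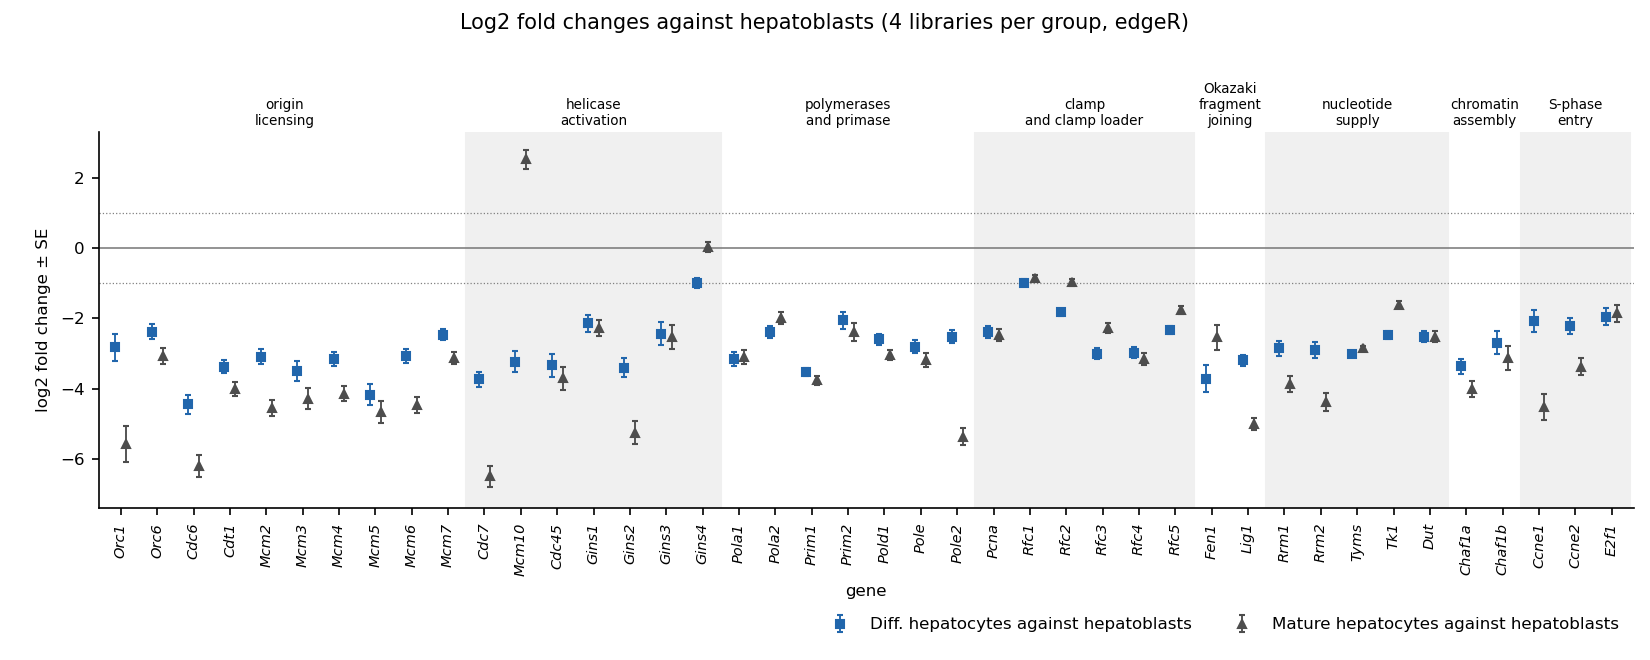
Log2 fold change with its standard error of each gene in Diff. hepatocytes (squares) and mature hepatocytes (triangles) against hepatoblasts, in the order of the roles, with dotted lines at the threshold of 1 in either direction. The squares lie between -4.44 and -0.98, and the triangles spread from -6.50 for Cdc7 to 2.53 for Mcm10.

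Diff. hepatocytes and mature hepatocytes differed in fewer of these genes. In Diff. against mature hepatocytes their log2 fold changes had a median of 0.40, where that of all tested genes was 0.09. Called higher in Diff. hepatocytes were 12 genes (background 20.2%): Ccne1, Ccne2, Cdc6, Cdc7, Gins2, Lig1, Mcm2, Mcm6, Orc1, Pole2, Rrm1 and Rrm2. Mcm10 alone was called lower (background 15.6%), at -5.75 ± 0.33 (SE), and 29 were not called, where 35.8% of all tested genes were called in either direction. Libraries did not overlap in 17 genes that were higher (background 32.4%) and in 8 that were lower (background 29.2%). Among the higher genes the largest differences were in Pole2 at 2.84 ± 0.25 (SE) (edgeR adjusted p = 3.36e-07), Cdc7 at 2.76 ± 0.32 (SE) (edgeR adjusted p = 5.97e-06) and Orc1 at 2.75 ± 0.57 (SE) (edgeR adjusted p = 7.80e-04), whose level by summed counts was 7.02 times that of mature hepatocytes (95% exact interval 3.4 to 16.8, counting error only). The call of Rrm1, at 1.03 ± 0.21 (SE), was lost without Diff. hepatocytes replicate 1 (0.89), mature hepatocytes replicate 1 (0.99) or mature hepatocytes replicate 4 (0.96). That of Ccne2, at 1.15 ± 0.25 (SE), was lost without mature hepatocytes replicate 1 (0.98). Testing against the fold change threshold itself (edgeR's glmTreat) lost both calls and also those of Cdc6, Gins2, Mcm2, Mcm6 and Rrm2. Conversely, Mcm4, at 0.99 ± 0.21 (SE), was called higher in 6 of the 12 fits without a library (1.00095 to 1.06), Gins4 was called lower without Diff. hepatocytes replicate 1 (-1.07) or 3 (-1.06) or mature hepatocytes replicate 1 (-1.04) or 3 (-1.03), and Fen1, at -1.17 ± 0.41 (SE), was called lower without Diff. hepatocytes replicate 1 (-1.58).

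By role, all 10 licensing genes had a positive difference in Diff. against mature hepatocytes and 4 of them were called, whereas 0 of the 6 clamp and loader genes were called in edgeR's quasi-likelihood test. Of these 6, 3 had an adjusted p under 0.01 with a fold change inside the threshold, Rfc2 at -0.85 ± 0.10 (SE), Rfc3 at -0.72 ± 0.15 (SE) and Rfc5 at -0.57 ± 0.11 (SE), all lower in Diff. hepatocytes. Tk1 was likewise lower at -0.86 ± 0.11 (SE). The differences of Dut (0.00 ± 0.16 (SE)), Pola1 (-0.06 ± 0.21 (SE)), E2f1 (-0.09 ± 0.24 (SE)), Pcna (0.09 ± 0.17 (SE)), Gins3 (0.10 ± 0.36 (SE)) and Gins1 (0.13 ± 0.24 (SE)) were smaller than their standard errors, and those of Pola1 and E2f1 turned positive with library totals in place of TMM. At that scaling the median of all tested genes moved from 0.09 to 0.62 in this comparison, from -0.01 to -0.34 in Diff. hepatocytes against hepatoblasts and from -0.15 to -1.0 in mature hepatocytes against hepatoblasts. The median of the 42 genes moved with it, to 0.93, -3.19 and -4.01. There, 18 genes were called higher and 1 lower in Diff. against mature hepatocytes, where 5499 and 1776 of all 17779 tested genes were.

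**Figure D3:**
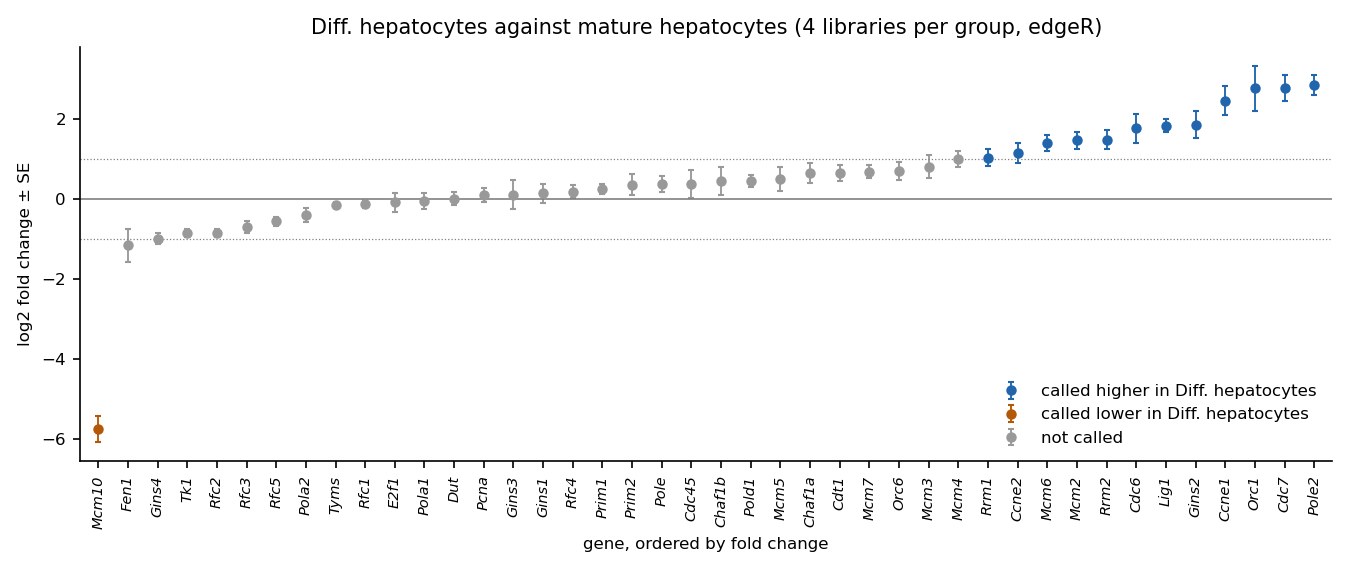
Log2 fold change with its standard error of each gene in Diff. hepatocytes against mature hepatocytes, ordered by size, with the called genes in colour and dotted lines at the threshold of 1. From Mcm10 at -5.75 the values pass 0 near Dut and reach 2.84 for Pole2, and 29 genes are not called.

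Levels of different genes were compared as RPKM, the CPM divided by the length of the main transcript in kilobases, with no test between genes. The 6 ring subunits lay within a factor of 2.09 of each other in hepatoblasts, from 29.9 RPKM for Mcm4 to 62.5 RPKM for Mcm6, and their libraries overlapped between all neighbours in that order. In Diff. hepatocytes the range was 2.61 RPKM for Mcm5 to 9.25 RPKM for Mcm7, a factor of 3.55, and in mature hepatocytes 1.68 RPKM for Mcm4 to 5.81 RPKM for Mcm7, a factor of 3.45. In mature hepatocytes every library of Mcm7 lay above every library of Mcm6, its neighbour in the order, and all other neighbours overlapped. Mcm10 was at 6.39 RPKM in hepatoblasts and 0.682 RPKM in Diff. hepatocytes, below each ring subunit, and at 36.8 RPKM in mature hepatocytes, above each of them. Within GINS, Gins4 was highest in all 3 groups, at 15.0, 7.59 and 15.2 RPKM, and the factor between the highest and lowest subunit grew from 8.10 in hepatoblasts to 22.4 in Diff. hepatocytes and 72.9 in mature hepatocytes. Within the loader, Rfc3 was highest in hepatoblasts at 22.5 RPKM, with Rfc1 in the middle at 14.0 RPKM, and Rfc1 was highest in Diff. and mature hepatocytes at 7.08 and 7.71 RPKM. Within ORC, Orc1 was lowest in all 3 groups and Orc6 passed from the highest subunit in hepatoblasts (25.3 RPKM) to below Orc3 in Diff. hepatocytes (4.84 against 9.55 RPKM) and mature hepatocytes (3.0 against 9.65 RPKM). With the length of all exons of a gene in place of the main transcript, the order within the ring and the loader changed, with Mcm2 lowest of the ring in hepatoblasts and Rfc4 highest of the loader, while Gins4, Rfc1 in the hepatocyte groups and Orc1 kept their places.

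**Figure D4:**
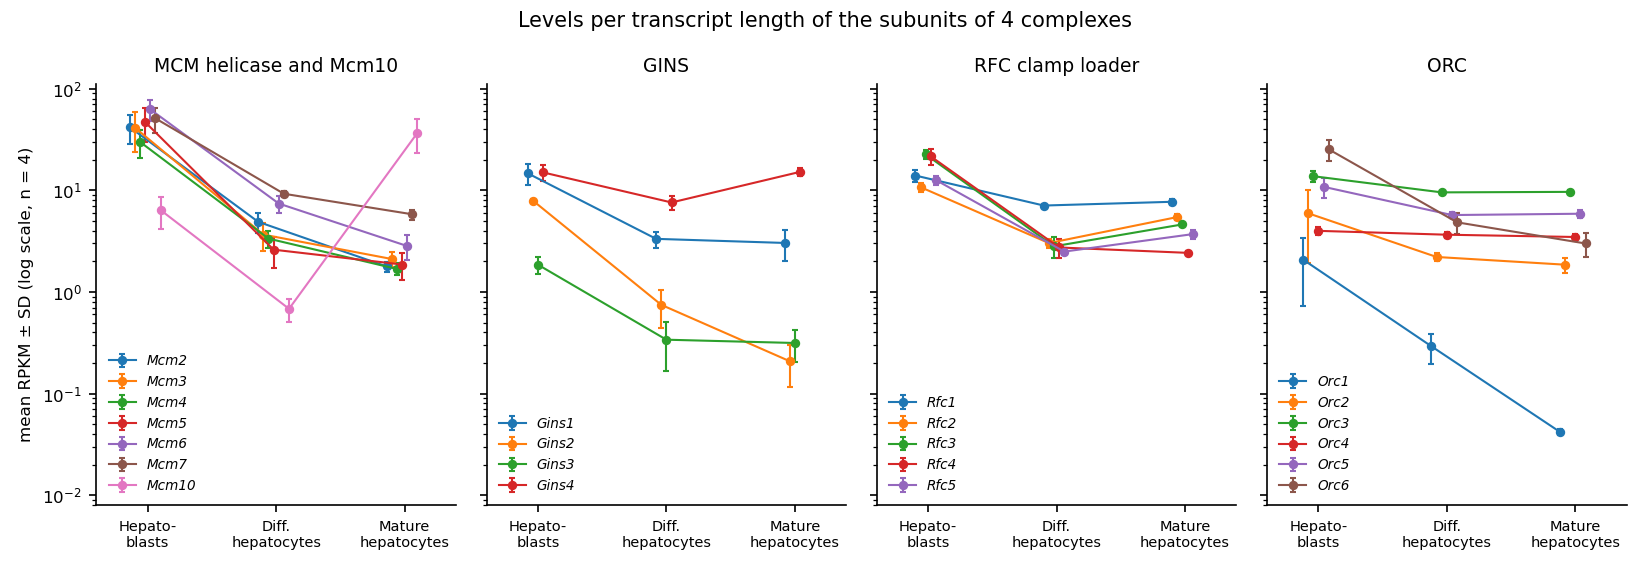
Mean RPKM with SD (n = 4) on a log scale in the 3 groups, 1 line per subunit, for the MCM ring with Mcm10, GINS, the RFC loader and ORC. The ring subunits fall together while Mcm10 rises to 36.8 RPKM in mature hepatocytes, Gins4 lies between 7.59 and 15.2 RPKM and Orc1 drops to 0.0420 RPKM.

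The wider pathway was described by 72 further genes, listed with earlier results known. In Diff. hepatocytes against hepatoblasts 42 of them were lower and 3 higher by the same rule (backgrounds 14.0% and 14.9%), and 46 lower and 3 higher in mature hepatocytes (backgrounds 24.7% and 20.1%), with medians of -1.34 and -1.56. Among the 37 other replisome and checkpoint genes, 27 were called lower in culture, down to -4.40 ± 0.31 (SE) for Uhrf1, which reads hemimethylated DNA at the fork. Higher were Pold4 and Pole4, small accessory subunits of polymerases delta and epsilon. Pold4 read 6.06, 6.24, 7.90 and 7.02 CPM in the hepatoblasts, 14.47, 15.3, 17.8 and 18.7 in the Diff. hepatocytes and 12.2, 14.6, 15.3 and 12.8 in the mature hepatocytes. Pole4 read 19.3, 15.0, 16.6 and 15.4 CPM in the hepatoblasts, 50.0, 60.5, 63.0 and 60.9 in the Diff. hepatocytes and 24.7, 22.8, 24.3 and 26.9 in the mature hepatocytes. They rose by 1.28 ± 0.13 (SE) and 1.82 ± 0.10 (SE) in culture, and with library totals Pold4, at 0.96, missed the threshold of fold change. The catalytic subunits Pold1 and Pole fell in the same libraries, so each of these polymerases had subunits called in opposite directions.

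Several genes outside the list do the same chemistry in resting cells or hold the E2F factors in check. Rbl2, which encodes the p130 pocket protein of quiescent cells, read 11.7, 6.27, 6.99 and 7.65 CPM in the hepatoblasts, 18.8, 21.8, 19.5 and 23.1 in the Diff. hepatocytes and 42.6, 43.0, 38.2 and 51.8 in the mature hepatocytes. Its relative Rbl1, the p107 protein, read 40.1, 30.7, 29.2 and 30.5 CPM in the hepatoblasts, 5.10, 4.65, 4.44 and 4.09 in the Diff. hepatocytes and 1.71, 2.76, 2.92 and 1.86 in the mature hepatocytes. Rbl2 was called higher and Rbl1 lower against hepatoblasts in both comparisons, and their CPM ratio Rbl1 to Rbl2 passed from 3.42 to 4.90 in hepatoblasts to 0.177 to 0.272 in Diff. hepatocytes and 0.0359 to 0.0763 in mature hepatocytes. Tk2, the mitochondrial thymidine kinase, read 7.44, 6.98, 8.03 and 7.62 CPM in the hepatoblasts, 9.51, 8.60, 9.19 and 9.12 in the Diff. hepatocytes and 23.2, 23.2, 21.3 and 24.5 in the mature hepatocytes. It was called higher in mature hepatocytes against hepatoblasts at 1.62 ± 0.09 (SE) and lower in Diff. against mature hepatocytes at -1.34 ± 0.09 (SE), and with library totals, at 0.76 and -0.81, it was called in neither. The CPM ratio of Tk1 to Tk2 was 10 to 11.4 in hepatoblasts, 1.5 to 1.72 in Diff. hepatocytes and 0.870 to 1.26 in mature hepatocytes. Rrm2b, the reductase subunit used outside S phase, read 3.8, 3.10, 2.88 and 2.85 CPM in the hepatoblasts, 4.49, 3.18, 3.11 and 3.4 in the Diff. hepatocytes and 4.04, 2.89, 3.56 and 3.47 in the mature hepatocytes and was not called in any comparison, and the ratio of Rrm2 to Rrm2b went from 44.1 to 55.1 in hepatoblasts to 5.17 to 6.58 and 1.54 to 3.73 in the hepatocyte groups.

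Between Diff. and mature hepatocytes, 13 of the 72 genes were called higher in Diff. hepatocytes (background 20.2%) and 6 lower (background 15.6%). Among the lower genes were Rbl2, Tk2, E2f8, Shmt1 and Rnaseh2c, and of these E2f8 and Rnaseh2c were also called with library totals, whereas Rbl2, Tk2 and Shmt1 were not. E2f8, a repressing E2F factor, was at -2.14 ± 0.36 (SE) and read 58.6, 36.8, 38.0 and 33.3 CPM in the hepatoblasts, 3.11, 3.18, 2.09 and 2.56 in the Diff. hepatocytes and 16.8, 11.5, 15.9 and 4.16 in the mature hepatocytes. Shmt1, a serine hydroxymethyltransferase of folate metabolism, read 142, 197, 211 and 213 CPM in the hepatoblasts, 62.7, 92.2, 91.3 and 82.9 in the Diff. hepatocytes and 192, 233, 234 and 245 in the mature hepatocytes. All Diff. hepatocyte libraries lay below those of the other groups, at -1.46 ± 0.15 (SE) against mature hepatocytes, as they did for Rnaseh2c, a subunit of the nuclease that removes ribonucleotides, which read 44.7, 42.8, 42.3 and 41.2 CPM in the hepatoblasts, 15.3, 19.4, 15.4 and 15.5 in the Diff. hepatocytes and 59.4, 44.8, 53.9 and 65.7 in the mature hepatocytes. Among the higher genes, Dctd, which makes dUMP, stood at 5.31 ± 0.24 (SE), with 0.0641 to 0.292 CPM in mature hepatocytes against 6.31 to 8.08 CPM in Diff. hepatocytes. Ctps, Cdc25a and Cad were higher at 2.65 ± 0.19 (SE), 2.41 ± 0.14 (SE) and 1.38 ± 0.15 (SE). Ctps did not differ from hepatoblasts past the threshold in Diff. hepatocytes (edgeR adjusted p = 0.303), in which 55.5 ± 5.54 CPM (SD, n = 4) were measured.

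Marker genes of the cell cycle and of other cell types were summed per library for comparison. In hepatoblasts the 12 mitotic markers summed to 1455 to 2260 CPM, in Diff. hepatocytes to 67.5 to 156 CPM and in mature hepatocytes to 14.4 to 25.6 CPM. The 41 replication genes without Mcm10 summed to 2148 to 3453, 355 to 464 and 286 to 342 CPM. Their hepatoblast mean was 6.66 times that of Diff. and 8.31 times that of mature hepatocytes, compared with 18.5 and 83.5 times for the mitotic markers. With Mcm10 included, the 42 genes had mean sums of 2614, 391 and 490 CPM in hepatoblasts, Diff. and mature hepatocytes. The mature mean then exceeded the Diff. mean, and the hepatoblast mean was 6.69 times that of Diff. and 5.34 times that of mature hepatocytes. In hepatoblasts the 12 erythroid markers summed to 390 to 3204 CPM, and in Diff. hepatocytes to 7.55 to 30.1 CPM. In mature hepatocytes they summed to 135 to 184 CPM, of which 130 to 177 CPM were Alas2, and the globin genes Hbb-bt and Hba-a2 were at 0.411 CPM or less. The 10 macrophage markers summed to 69.6 to 271, 23.3 to 166 and 113 to 224 CPM in the 3 groups. The 8 endothelial markers had mean sums of 68.9, 8.34 and 167 CPM in hepatoblasts, Diff. and mature hepatocytes, with 138 CPM in hepatoblasts replicate 1. Mean sums over the same groups were 932, 1920.0 and 54.5 CPM for the 9 mesenchymal markers and 32.0, 136 and 53.6 CPM for the 7 bile duct markers. The part of these cell types in the levels of the replication genes was not tested. The 3 hepatoblast libraries with 390 to 649 CPM of erythroid markers held 2148 to 2449 CPM of the 41 genes. Both sums lay above those of all 8 hepatocyte libraries.

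**Figure D5:**
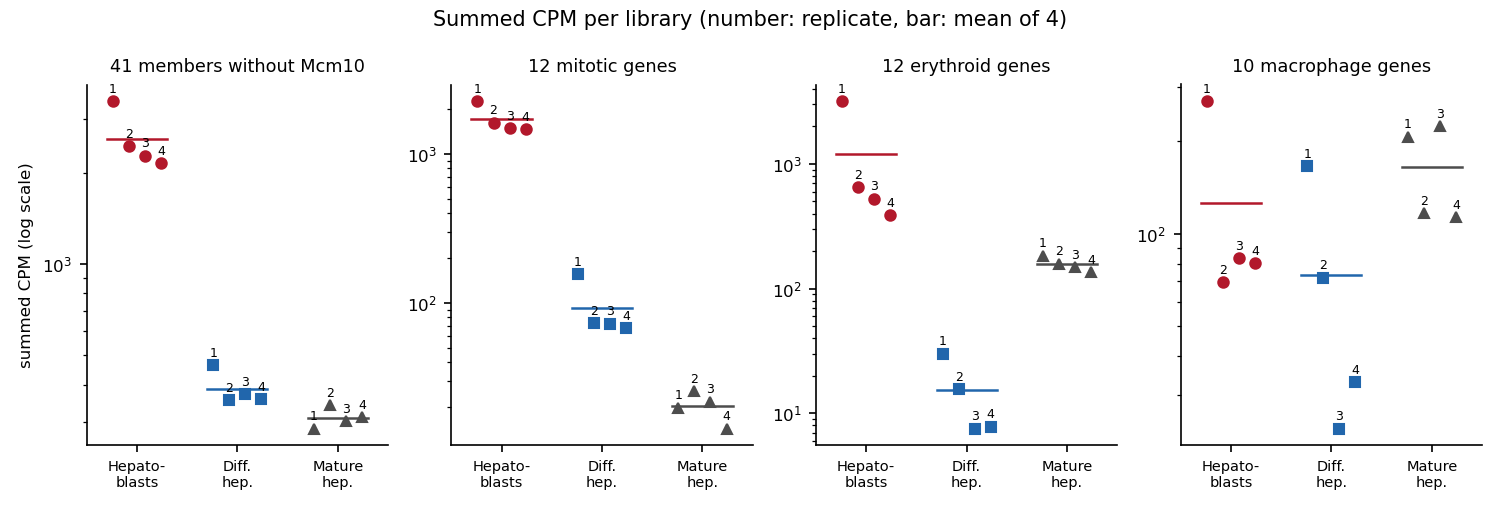
Summed CPM per library on a log scale of the 41 replication genes without Mcm10, 12 mitotic, 12 erythroid and 10 macrophage genes, with the replicate number beside each point and a bar at the mean of 4. Hepatoblasts replicate 1 is highest of its group in each panel, and the replication genes span 2148 to 3453 CPM for hepatoblasts, 355 to 464 CPM for Diff. hepatocytes and 286 to 342 CPM for mature hepatocytes.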

How the data were processed

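Poly(A) RNA of 12 libraries (3 groups of 4 biological replicates) was sequenced as single reads of 75 bases. The authors deposited raw read counts per gene; by their methods and processing notes reads were aligned to GRCm38 with STAR 2.5.2b, and FastQC 0.11.2, Picard 2.10.2 and DESeq2 1.22.2 were used. The strand setting of the counting is not given in the sources used here. The 17779 genes that exceeded 10 counts in at least 1 library were fitted over all 12 libraries with edgeR 4.0.16 (R 4.3.3), TMM factors, the quasi-likelihood test and Benjamini-Hochberg adjustment. The standard error of a log2 fold change was derived as its absolute value divided by the square root of that test's F statistic. CPM used TMM-scaled library sizes, and RPKM the main transcript of GENCODE M21. A two-sided exact permutation test of group labels over 4 against 4 libraries cannot give a p below 0.0286. Named genes were, per role, those with the highest mean CPM over the libraries and the largest and smallest change in culture, members not called or of opposite sign, and pathway genes called against the members' median; Orc2, Orc4, Uhrf1, Rbl1, Rrm2b, Dctd, Ctps, Cdc25a and Cad were added after their values were seen. Members and lists were chosen with earlier results of these data known. Same-numbered libraries were checked for pairing: 3 of 4 pairs of Diff. hepatocytes with hepatoblasts had a correlation of deviations over 0.1 (-0.06 to 0.32) and 0 of 4 in each other comparison (-0.08 to 0.09). These correlations do not settle whether same-numbered hepatoblast and Diff. hepatocyte libraries share an isolation. The main fit did not pair them. The fit was tested on counts simulated from hepatoblast means, with a small part of the genes changed in Diff. hepatocytes. That simulation did not cover differences between groups as broad as those seen here. Alternatives were DESeq2 1.42.0, other scalings, filters and thresholds, a replicate block and leaving out each library. The values of 1 of the 72 pathway genes are not reported here.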

Additional observations from a re-analysis of the deposited data

Results flagged for a closer look

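In 16 of 126 sets of 4 libraries (42 genes in 3 groups), 1 library lay farther from the others than Dixon's test allows at its 95% level, where chance gives 6.3. The sets share the same libraries, so the flags are not independent of each other. Hepatoblasts replicate 1 was the high library in 10 of the 16. Among licensing genes it read 12.3 CPM of Orc1 (others 3.78 to 4.79), 105.0 CPM of Cdt1 (74.1 to 75.5), 245 CPM of Mcm5 (123 to 142) and 243 CPM of Mcm6 (156 to 169). It read 47.2 CPM of Mcm10 (24.6 to 27.9), 67.6 CPM of Pold1 (52.5 to 55.0) and 62.5 CPM of Rfc2 (49.9 to 51.9). It read 67.9 CPM of Chaf1a (47.9 to 49.5), 24 CPM of Chaf1b (12.2 to 13.3) and 30.5 CPM of E2f1 (19 to 20.5). Diff. hepatocytes replicate 1 was the high library in 4, with 8.43 CPM of Orc6 (5.32 to 5.81), 16.3 CPM of Mcm3 (9.31 to 9.41), 1.64 CPM of Cdc7 (1.15 to 1.23) and 29.6 CPM of Rrm2 (17.6 to 18.4). Mature hepatocytes replicate 2 was the high library in 2, with 2.5 CPM of Cdc45 (1.30 to 1.40) and 10.8 CPM of Rrm2 (6.24 to 6.59).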

How the results depend on the processing

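The counts of called members and of called pathway genes against hepatoblasts stayed within 1.5 times under every alternative run. Over all tested genes, called genes in Diff. and mature hepatocytes against hepatoblasts and between both went from 5145, 7971 and 6362 to 2966, 5750 and 4221 with edgeR's glmTreat and to 10615, 12870 and 11580 at an adjusted p below 0.05. Leaving out each library in turn gave 40 to 42 called members in Diff. hepatocytes against hepatoblasts, 39 to 40 in mature hepatocytes against hepatoblasts and 12 to 15 between Diff. and mature hepatocytes. In the same order these fits called 4704 to 5170, 7621 to 7967 and 6027 to 6532 of all 17532 to 17752 tested genes. Between Diff. and mature hepatocytes, testing against the fold change threshold itself (edgeR's glmTreat) called 6 members (1 lower, 5 higher) and 11 of the 72 pathway genes, and an adjusted p below 0.05 at any fold change called 26 (7 lower, 19 higher) and 42. With library totals the share of lower among all called genes was 64.6%, 79.8% and 24.4% in the 3 comparisons, against 48.5%, 55.1% and 43.6% with TMM. Sign changes occurred only in genes that were not called. Gins4 in mature hepatocytes against hepatoblasts was at -0.85 with library totals and -0.026 without the count filter, and between -0.065 and 0.14 leaving out a library. Between Diff. and mature hepatocytes, library totals gave 0.48 for Pola1, 0.13 for Pola2, 0.40 for Rfc1, 0.36 for Tyms and 0.45 for E2f1. Leaving out a library gave -0.023 to 0.64 for Cdc45, -0.061 to 0.049 for Dut, -0.33 to 0.053 for E2f1, -0.00145 to 0.37 for Gins1, -0.29 to 0.31 for Gins3 and -0.18 to 0.048 for Pola1. With a replicate block Dut was at -0.00249, and 40, 39 and 15 members were called in the 3 comparisons. Of all 17779 tested genes, 5220, 7988 and 6360 were called with the block. Fen1 (-1.20) and Gins4 (-1.01) were added as lower between Diff. and mature hepatocytes. In the 3 comparisons 2, 2 and 0 of 4 libraries correlated best with their own number. Apart from the stated scaling and thresholds, the cause of these changes was not tested. Genes with a few counts per library, such as Orc1, Cdc7 and Pole2 in mature hepatocytes, are limited by depth.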
